A study of Mus musculus with 9 samples.

Results

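The respiratory chain genes described here were the protein coding genes of the deposited table whose mouse symbols name a subunit of complexes I to V: the mitochondrial encoded mt-Nd, mt-Co, mt-Atp and *mt-Cytb* genes, and the nuclear encoded Nduf, Sdh, Uqcr, *Cyc1*, Cox4 to Cox8 and Atp5 genes. The rule used symbols and no measured value. It matched 103 annotated genes, of which 97 were among the 13708 genes of the table, 13 of them mitochondrial and 84 nuclear encoded. Complex I had 45 members (7 mitochondrial encoded), complex II 4 (all nuclear encoded), complex III 10 (with *mt-Cytb* mitochondrial encoded), complex IV 18 (3 mitochondrial encoded) and complex V, the ATP synthase, 20 (2 mitochondrial encoded). The 6 others, *Cox7b2*, *Cox8b*, *Cox8c*, *Cox5b-ps*, *Ndufb11b* and a second gene identifier for *Atp5po*, were not analysed here. All 97 passed the filter on low values.

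The libraries came from livers of mouse embryos at E15.5 (embryonic day), from cells sorted as CD45+ F4/80hi CD11blow macrophages, and comprised 5 *Mrc1Cre Xpr1fl/fl* and 4 *Xpr1fl/fl* samples. Both groups carried the floxed *Xpr1* alleles, in which loxP sites flank exon 2 of the gene for the phosphate exporter XPR1, and the groups differed in the Cre. Cre was inserted into exon 30 of *Mrc1*, whose product CD206 is made by developing Kupffer cells and also by liver sinusoidal endothelial cells. The sorted gate held both Tim4hi and Tim4lo macrophages. By the study's flow cytometry, *Mrc1Cre Xpr1fl/fl* livers had a Tim4lo population beside the Tim4hi one, while controls showed Tim4hi cells. The mix of sorted macrophages may thus have differed between the genotypes, and its part in the differences below was not tested. Each library was made from 45 ng of total RNA with a stranded mRNA kit. The labels do not say that the samples came from separate embryos, so p-values measure the spread between these samples. In bulk RNA, fewer cells of a type and less RNA per cell cannot be told apart.

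*Xpr1* itself was lower in all 5 *Mrc1Cre Xpr1fl/fl* samples (1162.1 ± 84.9 normalized counts, SD) than in any of the 4 controls (1981.6 ± 204.7), with a log2 fold change of −0.77 (adjusted p = 4.13e-05 by limma). *Mrc1*, the gene that carries the Cre, had 7574.1 ± 1265.6 normalized counts in *Mrc1Cre Xpr1fl/fl* samples and 24693.3 ± 2674.1 in controls. Normalized counts, the authors' gene counts after division by DESeq2 factors, summed to between 26942921 and 28309443 per sample. The test was limma on log2(normalized count + 1), run over the 13594 genes that reached 10 normalized counts in 4 or more samples, and a gene is called changed at an adjusted p under 0.05. The added 1 shrinks the fold change of genes with low counts. Below, group means are given with their SD over 5 *Mrc1Cre Xpr1fl/fl* and 4 *Xpr1fl/fl* samples. The column names of the table carry 1 of 3 dates. *Mrc1Cre Xpr1fl/fl* sample 5 and *Xpr1fl/fl* samples 1 to 3 share the earliest, *Xpr1fl/fl* sample 4 has the middle one and *Mrc1Cre Xpr1fl/fl* samples 1 to 4 have the latest. What the dates stand for is not given in the sources used here.

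The respiratory chain sits in the inner mitochondrial membrane. Complexes I and II take electrons from NADH and succinate, complex III passes them to cytochrome c, complex IV hands them to oxygen, and ATP synthase uses the proton gradient that complexes I, III and IV build up. The mitochondrial genome encodes a few membrane-embedded core subunits of complexes I, III, IV and V, which are transcribed as long polycistronic RNAs from both strands and cut apart afterwards. All other subunits, and the whole of complex II, are encoded in the nucleus and imported. Macrophages are known to shift their use of the chain with their activation state.

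On the compact mitochondrial genome neighbouring genes can share bases, so a read can belong to more than 1 gene. On GRCm39, *mt-Atp8* (chromosome M, 7766 to 7969) and *mt-Atp6* (7927 to 8607), for membrane subunits of ATP synthase, share 43 bases. The genes *mt-Nd4l* (9877 to 10173) and *mt-Nd4* (10167 to 11544), for membrane subunits of complex I, share 7 bases. The shared bases are in capitals, with the flanking bases of each gene in lower case, read 5′ to 3′ on the plus strand from chrM:7915-7981 and chrM:10155-10185.
mt-Atp8 into mt-Atp6: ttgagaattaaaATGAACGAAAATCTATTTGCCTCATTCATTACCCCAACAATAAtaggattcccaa
mt-Nd4l into mt-Nd4: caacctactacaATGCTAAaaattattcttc
In both pairs the capitals run from the start of the downstream gene to the end of the upstream gene. Among the mitochondrial encoded members, *mt-Nd6* (13552 to 14070) alone lies on the minus strand, where its end overlaps that of *mt-Nd5* (11742 to 13565).

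Copies of mitochondrial sequence in the nuclear genome raise the same question on a larger scale. In the annotation of GRCm39, 5 of the 13 mitochondrial encoded members and 6 nuclear encoded members were nearly repeated by pseudogenes that the table also lists (at least 95% identity, over at least 150 bases and 80% of the pseudogene). For *mt-Co2*, *mt-Co3* and *mt-Atp6* the copies *Gm28661*, *Gm28437* and *Atp6-ps*, which lie near one another on chromosome 1 (24652270 to 24654646), matched over 681, 783 and 678 bases without a mismatch. The copies of *mt-Co1* and *mt-Nd3* on either side of them, *Gm29216* and *Gm28438*, differed from the gene at 1 base each over the matched length, A1066T and T3C, where the base of the mitochondrial gene comes first and positions count from 1 at the 5′ end of its transcript. The sequences around these bases show how little separates the pairs.
mt-Co1: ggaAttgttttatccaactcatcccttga
Gm29216: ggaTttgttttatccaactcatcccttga
mt-Nd3: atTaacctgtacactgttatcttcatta
Gm28438: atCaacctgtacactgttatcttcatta
The capital marks the base that differs. *Gm28438* held 18.9% to 51.4% of the summed normalized counts of *mt-Nd3* and its copy in *Mrc1Cre Xpr1fl/fl* samples and 26.4% to 41.6% in controls, and *Gm28437* held 15.1% to 23.8% of those of *mt-Co3* and its copy across all samples. The share taken by copies ran from 3.99% to 17.7% for *mt-Co2*, from 2.43% to 11.3% for *mt-Atp6* and from 6.865% to 9.002% for *mt-Co1*. How the authors' quantification split such reads was not tested, so the levels of these 5 genes are uncertain, and values with the copies added, an alternative chosen after seeing the data, are given beside them.

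**Figure D1:**
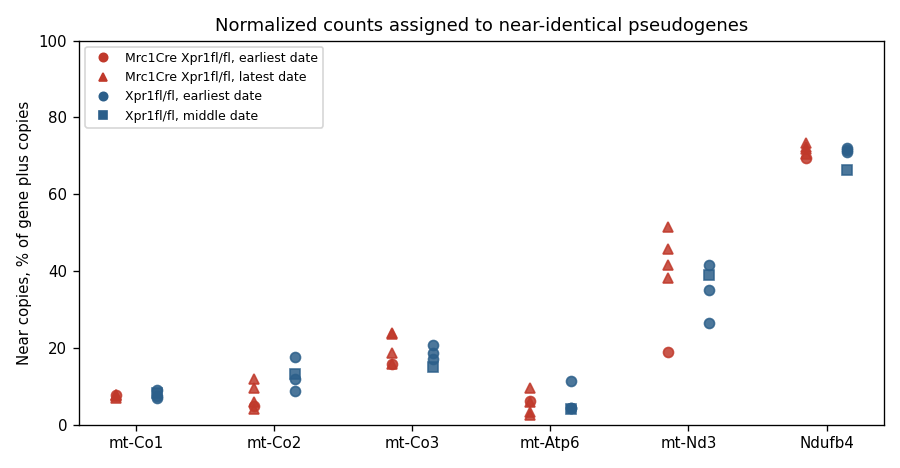
Normalized counts assigned to near-identical pseudogenes, as a percent of the gene plus its copies (y axis), for the 6 members on the x axis, with 1 point per sample. Red marks Mrc1Cre Xpr1fl/fl and blue Xpr1fl/fl, and the shape marks the date in the column names. Ndufb4 had 66.4% to 73.4% and mt-Nd3, with the widest range, 18.9% to 51.4%.

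The mitochondrial encoded transcripts were lower in *Mrc1Cre Xpr1fl/fl* macrophages, 13 of 13 past the threshold, while 21.6% of all genes tested were called lower. The median log2 fold change over the 13 was −0.75, against 0.01 over all genes tested. In 7 of them no *Mrc1Cre Xpr1fl/fl* sample reached any control, a pattern in the lower direction that 17.5% of all genes tested showed. *Mrc1Cre Xpr1fl/fl* samples 1 to 4 lay below every control for all 13 genes, and sample 5, which shares its date with 3 of the controls, lay above the other 4 for all 13 and within the controls' range for 6. *Xpr1fl/fl* sample 1 was the highest sample for all 13.

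**Figure D2:**
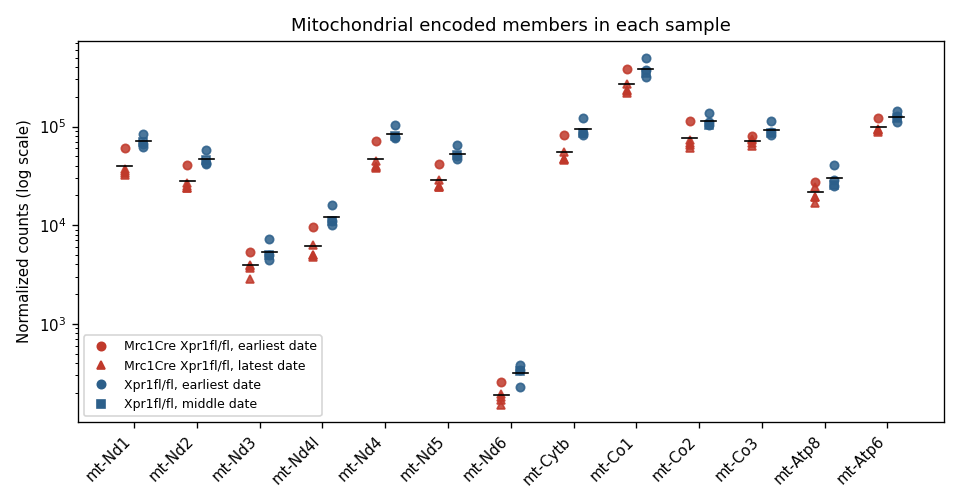
Normalized counts (y axis, log scale) of the 13 mitochondrial encoded members (x axis) in the 5 Mrc1Cre Xpr1fl/fl samples (red) and 4 Xpr1fl/fl samples (blue), with a black line at each group mean and the date in the column names as the shape. The 4 red points of the latest date lie below all blue points for every gene, and the red point of the earliest date, sample 5, lies above them and within the blue range for 6 of the 13.

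The mitochondrial subunits of complex I form the core of its membrane arm, and their median log2 fold change was −0.86. The normalized counts of *mt-Nd4l* were 5004.4, 4734.1, 4943.6, 6366.4 and 9539.7 in *Mrc1Cre Xpr1fl/fl* samples 1 to 5 and 15952.3, 11038.0, 10059.5 and 11061.1 in *Xpr1fl/fl* samples 1 to 4. Sample 5 of the first group came closest to the controls, without overlap. The log2 fold change was −1.01 (SE 0.20, adjusted p = 0.00216 by limma). For *mt-Nd5* the normalized counts were 24351.8, 25205.5, 24214.4, 28996.6 and 42051.5 against 64832.5, 50340.2, 46527.4 and 51022.5, again without overlap, and the log2 fold change was −0.90 (SE 0.16, adjusted p = 0.00102 by limma). The genes *mt-Nd4* (46524.0 ± 14057.2 against 84516.8 ± 12537.0 normalized counts), *mt-Nd1* (39913.1 ± 11620.3 against 70842.3 ± 9635.6) and *mt-Nd2* (28063.3 ± 7317.8 against 47173.7 ± 7391.5) fell by 0.89, 0.86 and 0.77 on the log2 scale, also without overlap.

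The minus strand gene *mt-Nd6*, with 189.5 ± 39.7 against 319.5 ± 63.9 normalized counts, fell by 0.75 on the log2 scale, and there sample 5 lay above the lowest control. The smallest difference of the 7 complex I genes was that of *mt-Nd3*, with a log2 fold change of −0.47 (adjusted p = 0.0416 by limma), and its groups overlapped. Its call was lost without any 1 of *Mrc1Cre Xpr1fl/fl* samples 1 to 4 or *Xpr1fl/fl* samples 1, 3 or 4 (limma adjusted p 0.0571 to 0.127). With its copy added, *mt-Nd3* had 7257.3, 5869.4, 6282.1, 6188.8 and 6541.2 normalized counts in *Mrc1Cre Xpr1fl/fl* samples 1 to 5 and 9781.6, 7656.6, 7647.6 and 8167.2 in controls. These sums did not overlap, sample 5 lay among the others of its genotype, and the log2 fold change was −0.37 (adjusted p = 0.00431 by limma).

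Cytochrome b, encoded by *mt-Cytb*, is the heme-bearing membrane core of complex III. Its normalized counts were 47117.9, 45924.3, 47023.0, 54764.5 and 81722.8 in *Mrc1Cre Xpr1fl/fl* samples and 122460.8, 85135.5, 82342.2 and 86551.7 in controls. The highest of the first group lay just below the lowest control, and the log2 fold change was −0.78 (SE 0.17, adjusted p = 0.00414 by limma).

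The 3 core subunits of cytochrome c oxidase and the 2 membrane subunits of ATP synthase had a median log2 fold change of −0.48. For *mt-Co1* the normalized counts were 218969.6, 227644.8, 234447.9, 270878.4 and 382546.3 in *Mrc1Cre Xpr1fl/fl* samples and 495655.8, 376058.7, 315583.1 and 351933.6 in controls. Sample 5 exceeded 3 of the 4 controls, and the log2 fold change was −0.54 (SE 0.18, adjusted p = 0.0282 by limma). With the copy added it was −0.55 (adjusted p = 0.0252 by limma). The call for *mt-Co1* was lost without *Mrc1Cre Xpr1fl/fl* sample 1, 2 or 3 or *Xpr1fl/fl* sample 1 (limma adjusted p 0.0641 to 0.0834). For *mt-Co2* (76103.5 ± 22138.2 against 113445.4 ± 15304.5 normalized counts) the log2 fold change was −0.61 (adjusted p = 0.0128 by limma), and −0.70 with the copies added. The groups did not overlap for *mt-Co3* (71841.9 ± 6884.9 against 92330.4 ± 14142.4 normalized counts), which had a log2 fold change of −0.36 (adjusted p = 0.0169 by limma), and −0.33 with the copies added. The ATP synthase genes *mt-Atp6* and *mt-Atp8* had log2 fold changes of −0.37 (adjusted p = 0.0152 by limma) and −0.48 (adjusted p = 0.0353 by limma), and their groups overlapped through sample 5. With its copy added *mt-Atp6* had −0.38 (adjusted p = 0.0227 by limma). For *mt-Atp8* the call was lost without *Mrc1Cre Xpr1fl/fl* sample 1, 2 or 3 or *Xpr1fl/fl* sample 1 or 2 (limma adjusted p 0.0617 to 0.100). With the copies added all 13 mitochondrial encoded genes were still called lower. Quantile normalization, which gives every sample the same distribution of values, ended 4 of the 13 calls. There the log2 fold change was −0.253 for *mt-Co1* (adjusted p = 0.0886 by limma), −0.385 for *mt-Co2* (adjusted p = 0.0557 by limma), −0.137 for *mt-Co3* (adjusted p = 0.224 by limma) and −0.018 for *mt-Atp6* (adjusted p = 0.900 by limma). These 4 had the highest mean normalized counts of the 13, from 319302.0 for *mt-Co1* to 80947.9 for *mt-Co3*. A gene that keeps its rank in every sample gets the same value in each by this method. How far that removed their differences was not tested.

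Within the mitochondrial encoded sum, the 7 complex I genes made up 20.5%, 20.4%, 19.3%, 20.3% and 22.1% of normalized counts in *Mrc1Cre Xpr1fl/fl* samples 1 to 5 and 24.1%, 23.7%, 25.2% and 25.4% in controls. The 3 complex IV genes made up 54.9% to 56.5% and 52.0% to 53.7%. Neither share overlapped between the genotypes, sample 5 included. Per kilobase of transcript, the control mean was highest for *mt-Co1* (249100 normalized counts per kb), followed by *mt-Atp6* (185100), *mt-Co2* (165900), *mt-Atp8* (147300) and *mt-Co3* (117800). Below these came *mt-Cytb* (82270 normalized counts per kb), *mt-Nd1* (74030), *mt-Nd4* (61330), *mt-Nd2* (45450), *mt-Nd4l* (40500), *mt-Nd5* (29160) and *mt-Nd3* (15540). Last was *mt-Nd6* with 615.6 normalized counts per kb. Across the control samples the ranges of all neighbours in this order overlapped, except those of *mt-Nd5* and *mt-Nd3* and of *mt-Nd3* and *mt-Nd6*. *Xpr1fl/fl* sample 1 was the highest for every gene, so these ranges do not show how the genes ranked within a sample. The 5 genes with copies could move within the order. How evenly the mRNA kit captured these transcripts was not tested. The order ranks normalized counts per kb and not necessarily the abundance of the transcripts.

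As a share of all normalized counts, the 13 genes took 2.30%, 2.26%, 2.35%, 2.60% and 3.71% in *Mrc1Cre Xpr1fl/fl* samples 1 to 5 and 4.90%, 3.98%, 3.46% and 3.71% in *Xpr1fl/fl* samples 1 to 4. The 84 nuclear encoded members together took 0.843% to 0.907% and 0.884% to 0.964%, ranges that overlap. The ratio of the mitochondrial to the nuclear encoded sum was 2.54, 2.59, 2.71, 3.08 and 4.17 in *Mrc1Cre Xpr1fl/fl* samples and 5.08, 4.21, 3.896 and 4.19 in controls. It was lowest in the 4 samples of the latest date, and sample 5 lay within the controls' range. By complex, the nuclear encoded sums did not overlap for complex I (0.188% to 0.201% against 0.202% to 0.226% of normalized counts) or complex IV (0.134% to 0.141% against 0.146% to 0.171%). They overlapped for complex II (0.0798% to 0.0824% against 0.0779% to 0.0843%), complex III (0.0817% to 0.0904% against 0.0843% to 0.0917%) and complex V (0.358% to 0.394% against 0.372% to 0.402%).

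**Figure D3:**
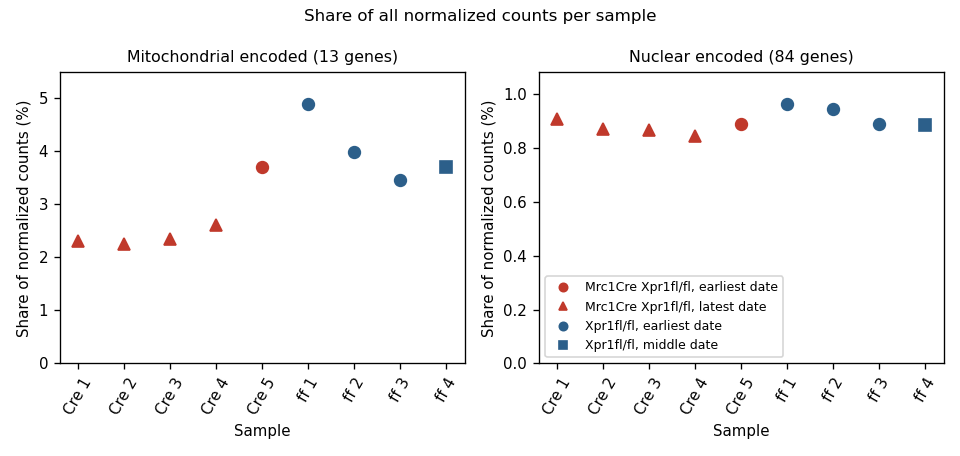
Share of all normalized counts (y axis, percent) taken by the 13 mitochondrial encoded members and the 84 nuclear encoded members in each sample (x axis, Cre for Mrc1Cre Xpr1fl/fl and ff for Xpr1fl/fl). The mitochondrial share was 2.26% to 2.60% in the 4 samples of the latest date and 3.46% to 4.90% in all others, and the nuclear share lay between 0.843% and 0.964% in every sample.

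A second fit took the date as a term, so that *Mrc1Cre Xpr1fl/fl* sample 5 was set against the 3 controls of its date. Every genotype value of that fit, calls included, rests on sample 5 alone, which is assumed to vary like the samples that share a genotype and a date, since the spread came from those. There 0 of the 13 mitochondrial encoded members were called by limma, and 0 had an unadjusted p under 0.05. Across all genes tested that fit called 4.54% lower and 4.24% higher. The median log2 fold change of the 13 was −0.21, from −0.34 (*mt-Nd5*, adjusted p = 0.233 by limma, and *mt-Nd4l*, adjusted p = 0.383 by limma) to −0.01 (*mt-Co2*, adjusted p = 0.976 by limma). Within the *Mrc1Cre Xpr1fl/fl* genotype, the median log2 difference of samples 1 to 4 from sample 5 was −0.72 over the 13 genes and −0.06 over the nuclear encoded members. That difference rests on 1 sample on the earliest date and has no test. For the mitochondrial transcripts of samples 1 to 4, date and genotype cannot be told apart.

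Markers of other cells moved in the same samples. The counts called below stand beside 21.6% of all genes tested called lower and 21.5% called higher. A sum gives most weight to the most abundant genes of its list. By mean over the samples the highest were *Plac8* among the monocyte markers and *Cd5l* among the macrophage markers. All 16 erythroid markers in the table were lower in *Mrc1Cre Xpr1fl/fl* samples (median log2 fold change −1.82). Their summed normalized counts were 136238.2, 106165.7, 168223.3, 156647.7 and 318739.4 in *Mrc1Cre Xpr1fl/fl* samples 1 to 5 and 569477.6, 418625.5, 659796.5 and 646668.7 in controls, so sample 5 was again the nearest to the controls. All 11 hepatocyte markers were lower as well (summed normalized counts 35402.1 to 45939.2 against 59976.6 to 103470.7), as were 9 of 11 endothelial markers (6367.2 to 8475.5 against 10480.7 to 14533.7). Of 12 granulocyte and progenitor markers 5 were lower (5341.3 to 18565.2 against 9748.3 to 56535.2), and of 6 megakaryocyte markers 3 (742.2 to 1080.9 against 2252.2 to 2698.0). The 8 monocyte markers split, with 3 lower and 4 higher (13666.7 to 17242.2 against 9632.5 to 12869.3). Of the 12 macrophage markers, all present, 5 were lower (321161.4 to 370976.5 against 373265.3 to 475766.0). Of the 10 cell cycle genes 3 were lower and 1 higher, with overlapping sums (60933.1 to 70816.8 against 61320.6 to 72938.6). *Gp1bb* alone among these markers was listed at 0 in a sample, and *Ahsp* was not analysed here. The part of these cells in the respiratory chain differences was not tested.

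Among the 84 nuclear encoded members, 19 were lower and 1 was higher in *Mrc1Cre Xpr1fl/fl* macrophages, and 64 did not pass. The share called lower (22.6%) was near that of all genes tested, and the share called higher (1.19%) lay under the 21.5% of all genes. Their median log2 fold change was −0.11, and 64 of the 84 had a negative value. The genotypes did not overlap for 16 (19.05%) in the lower direction, near the 17.5% of all genes tested. In the higher direction they did not overlap for 1, where 16.6% of all genes did not. Without *Xpr1fl/fl* sample 1 the number lower was 13, where 2545 of all 13456 genes tested were lower. Without *Mrc1Cre Xpr1fl/fl* sample 5 it was 23, where 3031 of all 13509 genes tested were lower. The median of the nuclear encoded members moved to −0.07 without *Xpr1fl/fl* sample 1. After scaling to the 75th percentile, 43 were lower and 0 higher, while that scaling called 27.3% of all genes lower and 14.7% higher. In the date fit, which rests on *Mrc1Cre Xpr1fl/fl* sample 5 alone, most of these calls were lost, and the median was −0.07.

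**Figure D4:**
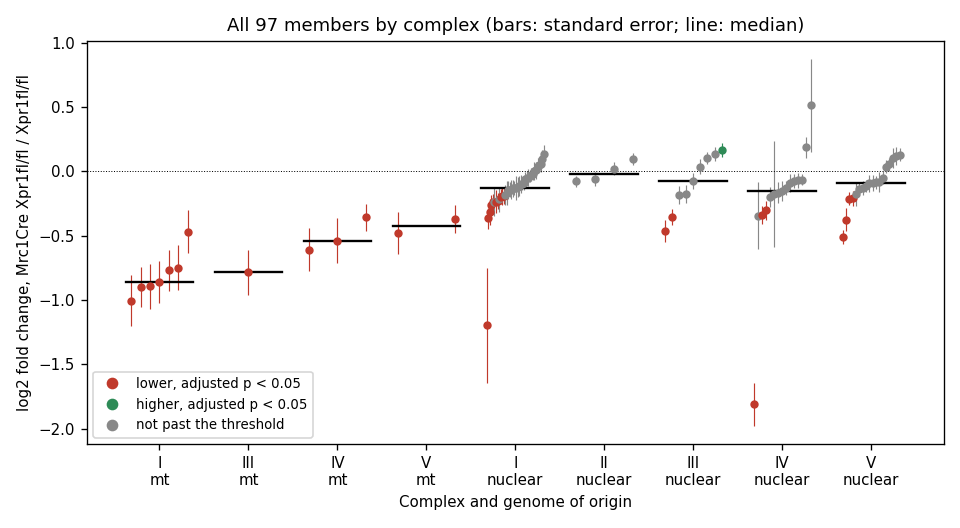
Log2 fold change (y axis, Mrc1Cre Xpr1fl/fl over Xpr1fl/fl) of all 97 members by complex and genome of origin (x axis), with the standard error from limma as bars and the median of each group as a line. Red marks members called lower, green those called higher and grey the rest. All 13 mitochondrial encoded members lie below 0 and were called lower, and among the nuclear encoded members Cox6b2 at −1.81 and Ndufa4l2 at −1.20 lie lowest.

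Complex I had 10 lower and 0 higher among its 38 nuclear encoded members (median log2 fold change −0.13, and −0.079 without *Xpr1fl/fl* sample 1). The share lower was 26.3%, against 21.6% of all genes tested. After scaling to the 75th percentile 20 were lower, and in the date fit 0 were. When each sample's trend with transcript length was removed, 4 were lower and 3 higher. Of the 7 core subunits, which carry the flavin and iron-sulfur clusters, 1 was called, *Ndufv1*, the subunit that binds NADH (1950.7 ± 88.9 against 2305.7 ± 173.1 normalized counts, log2 fold change −0.24, adjusted p = 0.00813 by limma). *Ndufv1* is named after its values were seen. Of the 31 others, the accessory subunits with *Ndufa4* and *Ndufa4l2* counted in, 9 were lower, *Ndufa4l2* among them. *Ndufa2* fell by 0.37 on the log2 scale (990.0 ± 63.2 against 1279.7 ± 155.4 normalized counts, adjusted p = 0.00437 by limma), without overlap, and *Tmco6* overlaps it on the opposite strand. The log2 fold change of *Ndufb4* was −0.31 at 217.3 ± 14.7 against 270.8 ± 26.7 normalized counts (adjusted p = 0.0257 by limma), but its pseudogene *Ndufb4c*, identical over 390 bases, held 66.4% to 73.4% of the summed counts of the pair. With the copy added, the log2 fold change of *Ndufb4* was −0.25 (763.0 ± 34.1 against 911.4 ± 83.0 normalized counts, adjusted p = 0.0141 by limma). For *Ndufb4* alone the call was lost without *Mrc1Cre Xpr1fl/fl* sample 3 or 4 or *Xpr1fl/fl* sample 1 or 4 (limma adjusted p 0.0535 to 0.0698), and under quantile normalization (−0.143, adjusted p = 0.318 by limma) and with the length trend removed.

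*Ndufa4*, named for complex I but now regarded as a subunit of complex IV, had a log2 fold change of −0.05 (adjusted p = 0.439 by limma). Its paralog *Ndufa4l2*, known to be induced in hypoxia, had 11.9, 8.4, 8.2, 32.3 and 25.4 normalized counts in *Mrc1Cre Xpr1fl/fl* samples and 23.5, 25.2, 53.1 and 48.9 in controls. The groups overlapped at these low levels, and *Shmt2* overlaps it on the opposite strand. The log2 fold change of *Ndufa4l2* was −1.20, and its limma adjusted p of 0.0498 moved to 0.0525 to 0.138 without any 1 of *Mrc1Cre Xpr1fl/fl* samples 1 to 3 or *Xpr1fl/fl* samples 2 to 4.

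Complex II, succinate dehydrogenase, also works in the citric acid cycle, and 0 of its 4 genes passed the threshold. The flavoprotein gene *Sdha* had 11123.9, 11011.3, 11337.5, 11663.5 and 10572.6 normalized counts in *Mrc1Cre Xpr1fl/fl* samples and 10899.4, 10521.6, 10218.9 and 10077.1 in controls. The groups overlapped, and the log2 fold change was 0.10 (SE 0.05, adjusted p = 0.120 by limma). Those of the iron-sulfur subunit gene *Sdhb* and the membrane anchor genes *Sdhc* and *Sdhd* were −0.08 (adjusted p = 0.189 by limma), −0.06 (adjusted p = 0.397 by limma) and 0.02 (adjusted p = 0.761 by limma). For all 4 genes *Mrc1Cre Xpr1fl/fl* sample 5 lay within the range of the controls.

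Complex III had 2 lower and 1 higher among 9 nuclear encoded members. These are shares of 22.2% and 11.1%, against 21.6% and 21.5% of all genes tested. Of the 5 small subunits 2 were lower, and all 5 had a negative log2 fold change (median −0.18). *Uqcrh*, the hinge protein at the docking site of cytochrome c, had 1972.3, 1815.0, 1908.4, 1934.5 and 2173.5 normalized counts in *Mrc1Cre Xpr1fl/fl* samples and 3289.3, 2568.5, 2571.3 and 2428.0 in controls. Every control was higher than every *Mrc1Cre Xpr1fl/fl* sample, and the log2 fold change was −0.46 (SE 0.09, adjusted p = 0.00160 by limma). *Uqcr11*, another small subunit, fell by 0.36 on the log2 scale (1358.8 ± 76.3 against 1739.8 ± 130.2 normalized counts, adjusted p = 0.00128 by limma). The 4 genes for cytochrome c1, the Rieske protein and the core proteins had positive log2 fold changes (median 0.12), and *Uqcrc2*, for a core protein, passed. Its normalized counts were 4689.4, 4607.9, 4141.5, 4134.7 and 4274.1 against 4057.4, 3965.7, 3740.3 and 3799.7, without overlap, and the log2 fold change was 0.17 (SE 0.05, adjusted p = 0.0280 by limma). The call for *Uqcrc2* was lost without *Mrc1Cre Xpr1fl/fl* sample 1 or 2 or *Xpr1fl/fl* sample 3 or 4 (limma adjusted p 0.0669 to 0.0824), under scaling to the 75th percentile or to the total of the nuclear genes, and under quantile normalization. The signs were not stable for 2 genes that did not pass. The Rieske protein gene *Uqcrfs1* had 0.04 and, after scaling to the 75th percentile, −0.04, and the small subunit gene *Uqcrq* had −0.072 and, with the date as a term, 0.029. The difference between the small and the large subunits was not tested.

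Complex IV had 3 lower and 0 higher among 15 nuclear encoded members (median log2 fold change −0.15, and −0.068 without *Xpr1fl/fl* sample 1). The share lower was near that of all genes, and 9 were lower after scaling to the 75th percentile. *Cox6b2*, the testis isoform of a subunit at the contact between enzyme monomers, had the largest change of all 97 members. Its normalized counts were 54.0, 40.6, 39.6, 47.2 and 64.8 in *Mrc1Cre Xpr1fl/fl* samples and 171.4, 160.3, 181.6 and 176.9 in controls. Sample 5 was the highest of its group but far below the lowest control, and the log2 fold change was −1.81 (SE 0.17, adjusted p = 2.50e-05 by limma). With the date as a term, where sample 5 alone stands for its genotype, it was −1.39 (adjusted p = 0.0145 by limma). The common isoform *Cox6b1*, with 5250 normalized counts per kb in controls against 287.6 for *Cox6b2*, had a log2 fold change of −0.09 (adjusted p = 0.309 by limma).

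*Cox7a2l*, also called Scaf1, is a Cox7a family protein known for linking complexes III and IV into a supercomplex. Its normalized counts were 3036.3, 2860.7, 3127.6, 3105.6 and 2956.1 in *Mrc1Cre Xpr1fl/fl* samples and 4307.7, 3527.6, 4017.7 and 3436.8 in controls. All controls were higher, and sample 5 sat among the other samples of its genotype. The log2 fold change was −0.34 (SE 0.07, adjusted p = 0.00262 by limma), while the date fit, again on sample 5 alone, gave −0.41 (adjusted p = 0.0456 by limma). *Eml4* overlaps *Cox7a2l* on the opposite strand. The paralogs *Cox7a2* and *Cox7a1* had log2 fold changes of −0.07 (adjusted p = 0.363 by limma) and −0.34 (adjusted p = 0.314 by limma), the second at 14.8 ± 2.5 against 19.1 ± 3.1 normalized counts. The remaining call was *Cox5a*, a subunit of the enzyme's matrix side, named after its values were seen (5466.5 ± 357.9 against 6750.0 ± 718.3 normalized counts, log2 fold change −0.30, adjusted p = 0.00682 by limma).

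The common isoforms *Cox4i1*, *Cox6a1* and *Cox8a* had log2 fold changes of −0.20 (adjusted p = 0.0611 by limma), −0.13 (adjusted p = 0.0760 by limma) and −0.07 (adjusted p = 0.255 by limma), and none passed. The lung isoform *Cox4i2* had means of 35.9 and 24.2 normalized counts (adjusted p = 0.271 by limma), and the muscle isoform *Cox6a2* had 8.4 ± 2.9 against 9.6 ± 3.4 (adjusted p = 0.762 by limma). Per kilobase, controls had 10980 normalized counts of *Cox4i1* against 31.93 of *Cox4i2*, and 6610 of *Cox6a1* against 14.12 of *Cox6a2*.

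In ATP synthase, 4 of 18 nuclear encoded members were lower and 0 higher (median log2 fold change −0.09). That share, 22.2%, was near the 21.6% of all genes tested. After scaling to the 75th percentile 9 were lower, while that scaling called 27.3% of all genes lower. In the date fit, on *Mrc1Cre Xpr1fl/fl* sample 5 alone, the median was −0.066. Of the 5 subunits of the catalytic F1 head 0 passed (median 0.04), and 1 each did among the 3 c ring genes, the 4 peripheral stalk genes and the 5 small membrane subunits. The remaining call was *Atp5if1*, the inhibitor that stops the enzyme from running backwards when the membrane potential is lost. Its normalized counts were 2395.0, 2401.3, 2440.8, 2370.2 and 2680.5 in *Mrc1Cre Xpr1fl/fl* samples and 3734.9, 3284.0, 3554.5 and 3432.3 in controls. The groups did not overlap, the log2 fold change was −0.51 (SE 0.06, adjusted p = 5.43e-05 by limma), and the date fit, on sample 5 alone, gave −0.39 (adjusted p = 0.0248 by limma). *Atp5mg*, for a small membrane subunit, fell by 0.37 on the log2 scale (2475.9 ± 229.7 against 3215.0 ± 394.1 normalized counts, adjusted p = 0.00570 by limma). Its 2 near copies in the table held 0.683% to 11.8% of the summed counts in *Mrc1Cre Xpr1fl/fl* samples and 2.93% to 8.41% in controls, and with them added the log2 fold change was −0.34 (adjusted p = 0.00518 by limma).

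The 3 c ring genes encode the same mature protein behind different import signals. *Atp5mc2* passed (4145.5 ± 100.5 against 4805.6 ± 327.1 normalized counts, log2 fold change −0.21, adjusted p = 0.00719 by limma). *Atp5mc1* had a log2 fold change of 0.10 (adjusted p = 0.318 by limma) and *Atp5mc3* of −0.05 (adjusted p = 0.506 by limma), and neither passed.

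**Figure D5:**
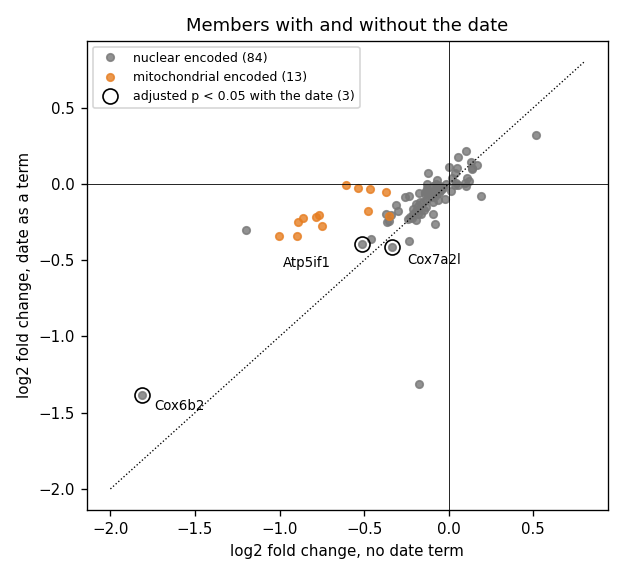
Log2 fold change of each member without a date term (x axis) and with that date taken into the fit (y axis), where the date is the one in the column names. The 13 mitochondrial encoded members have a median of −0.75 on the x axis and −0.21 on the y axis, and Cox6b2, Atp5if1 and Cox7a2l were called in both fits.

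Nuclear encoded members with short transcripts made up most of those called. Of the 42 nuclear encoded members with a canonical transcript up to the median length of 1002 bases, 14 were lower and 0 higher, and of the 42 longer ones 5 were lower and 1 higher. The shares lower were 33.3% and 11.9%, against 21.6% of all genes tested, whatever their length. The share called among other genes of like length is not given here, so neither share is set against it. Genes outside the chain showed a gradient of the same sign. Over other protein coding genes, the median log2 fold change was −0.16 for transcripts up to 1000 bases (570 genes), −0.10 from there to 2000 bases (2151 genes), −0.001 from there to 5000 bases (6711 genes) and 0.11 above 5000 bases (3421 genes). In the first 3 of these classes, the nuclear encoded members had medians of −0.17 (42 genes), −0.09 (22 genes) and −0.08 (19 genes), so they lay near the other genes in the first 2 and below them in the third. Only 1 member was longer.

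When each sample's trend with transcript length was removed, an alternative chosen after seeing the data, 13 nuclear encoded members were lower and 9 higher. That fit called 21.7% of all genes lower and 20.5% higher, and it called 12 of the 13 mitochondrial encoded members lower, all but *mt-Nd3*. *Cox6b2*, *Atp5if1*, *Cox7a2l*, *Uqcrh*, *Uqcr11*, *Ndufa2*, *Atp5mg*, *Atp5mc2*, *Ndufv1* and *Cox5a* were still lower in it, and *Uqcrc2* was still higher.

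The lists of genes that assemble, express and feed the chain had medians near 0, and their counts stand beside 21.6% of all genes tested called lower and 21.5% called higher. Of 61 assembly factors in the table, 8 were lower and 5 higher (median log2 fold change −0.06). The complex IV factors *Pet100* (log2 fold change −0.51, adjusted p = 0.00458 by limma) and *Higd2a* (−0.44, adjusted p = 0.00126 by limma) fell, and the complex III factor *Uqcc1* (0.33, adjusted p = 0.0145 by limma) and the complex IV factor *Coa5* (0.33, adjusted p = 0.000199 by limma) rose. Of the 38 genes that maintain mitochondrial DNA or make and process its RNA, 2 were lower and 8 higher (median 0.03). The share higher, 21.1%, was near that of all genes. After scaling to the 75th percentile 3 were lower and 3 higher, where 27.3% and 14.7% of all genes were. *Polg2*, the accessory subunit of the mitochondrial DNA polymerase, fell by 0.48 and *Hsd17b10*, a part of mitochondrial RNase P, fell by 0.40 on the log2 scale. *Tbrg4* and *Fastkd3*, both of the FASTK family of mitochondrial RNA binding proteins, rose by 0.38 and 0.38. Of 16 nuclear regulators of respiratory genes, 0 were lower and 3 higher (median 0.06), among them *Yy1* (log2 fold change 0.32, adjusted p = 0.00500 by limma) and *Gabpa*, the DNA binding subunit of NRF-2 (0.23, adjusted p = 0.0428 by limma). The genotypes overlapped for both genes, and with the date as a term they had 0.096 and 0.015. The call for *Gabpa* was lost after scaling to the 75th percentile (0.156, adjusted p = 0.1405 by limma) and with the length trend removed (0.175, adjusted p = 0.0862 by limma). Of 78 mitochondrial ribosomal proteins, 5 were lower and 8 higher (median −0.01), with rises in *Mrps27* (0.41) and *Mrps22* (0.29) and falls in *Mrps6* (−0.33) and *Mrpl24* (−0.29).

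In the citric acid cycle list, 6 of 27 genes were lower and 7 higher (median log2 fold change 0.04). *Pdk2*, a kinase that switches off pyruvate dehydrogenase, had 129.2 ± 24.5 against 329.2 ± 52.1 normalized counts (log2 fold change −1.35, adjusted p = 9.95e-05 by limma) and was also lower with the date as a term (−1.16, adjusted p = 0.0340 by limma). *Pcx*, pyruvate carboxylase, fell by 0.90 on the log2 scale. *Pdk1*, another kinase of the same family, and *Pdp2*, a phosphatase that reactivates the enzyme, rose by 0.41 and 0.31. Of 28 genes for cytochrome c, coenzyme Q synthesis and the carriers that feed the chain, 3 were lower and 6 higher (median 0.01). *Gpd2*, which passes electrons from glycerol phosphate to coenzyme Q, rose by 0.59 on the log2 scale, and *Pdss1*, which makes the tail of coenzyme Q, by 0.50. *Coq8a*, also of coenzyme Q synthesis, and *Etfb*, an electron transfer flavoprotein, fell by 0.64 and 0.39.

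The list of mitochondrial chaperones, proteases and turnover genes held 12 higher and 4 lower of 29 (median log2 fold change 0.11). These are 41.4% and 13.8%, against 21.5% and 21.6% of all genes tested. The 75th percentile scaling called 8 of the 29 higher and 5 lower, while it called 14.7% of all genes tested higher and 27.3% lower. With the date as a term, on *Mrc1Cre Xpr1fl/fl* sample 5 alone, these 29 genes had a median of 0.076, against 0.012 over all genes tested. *Atf5*, a transcription factor of the mitochondrial unfolded protein response, had 1043.0 ± 113.9 against 593.0 ± 86.5 normalized counts (log2 fold change 0.82, adjusted p = 0.000165 by limma), and it was also higher with the date as a term (0.91, adjusted p = 0.0102 by limma). *Sqstm1*, the autophagy receptor p62, rose by 0.52 on the log2 scale. The mitophagy kinase gene *Pink1* fell by 0.47 and the fission factor gene *Fis1* by 0.32. With the date as a term, *Coa5*, *Coq8a*, *Pdk2* and *Atf5* were the named genes of these lists still called by limma, each on sample 5 alone. In that fit no list had more than 1 gene called in either direction, and the list for mitochondrial DNA and its RNA had 0.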

How the data were processed

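Bulk RNA-seq of 9 libraries was analysed, 5 *Mrc1Cre Xpr1fl/fl* and 4 *Xpr1fl/fl*, grouped by the genotype in the labels. The deposited signal values are gene counts that the authors divided by DESeq2 normalization factors. Per the study's methods, reads were quantified with salmon on a GRCm39 index and imported with tximport after FastQC. These values were not whole reads and whole reads could not be recovered from them, so no count model was used and the sequencing depth is unknown. The sample totals, 26942921 to 28309443 normalized counts, were set by the normalization. The salmon strand setting is not given in the sources used here.

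Symbols, GRCm39 coordinates and canonical transcripts came from GENCODE mouse release 39. Tests used limma 3.58.1 (lmFit, eBayes with trend) in R 4.3.3 on log2(normalized count + 1) for genes that reached 10 normalized counts in 4 or more samples, with Benjamini-Hochberg adjustment over all genes and a threshold of 0.05. Near copies were found with blastn 2.17.0. The main fit was tested on simulated data that held no date effect, and the alternatives were not tested in this way. No p-value was computed for a list or for a sum over members. Alternatives were other pseudocounts, filters, scalings and limma options, the replicate number or the date as a term, each library left out, and, added after seeing the data, a correction for transcript length and the addition of near copies, each also with the date. The text names the 13 mitochondrial encoded members; per complex and per pathway list up to 2 rises and 2 falls, the largest among called genes averaging 50 normalized counts or more; the Sdh genes; fixed isoform groups with *Atp5if1*; and *Xpr1* and *Mrc1*. The members, the lists of pathway genes and cell type markers, and the tests were chosen with earlier results of these data known.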

Additional observations from a re-analysis of the deposited data

Results flagged for a closer look

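Within a genotype, the sample farthest from the others was picked out by Dixon's gap test in 25 of 200 groups of values, where chance picks out about 1 in 20 groups. *Mrc1Cre Xpr1fl/fl* sample 5 was that sample in 13 of them, 7 of which are mitochondrial encoded. It stood above the other 4 samples of its genotype for *mt-Nd1* (60510 normalized counts), *mt-Nd2* (40950), *mt-Nd4* (71270), *mt-Nd5* (42050), *mt-Cytb* (81720), *mt-Co2* (115000) and *mt-Atp6* (122100), and for the mitochondrial encoded share of all normalized counts (3.705%). Among nuclear encoded members named in the text it stood above them for *Ndufa2* (1100 normalized counts), *Cox4i1* (7821) and *Atp5if1* (2681). *Xpr1fl/fl* sample 1 was that sample for 8 nuclear and 2 mitochondrial encoded members. It stood above the other controls for *mt-Nd4l* (15950 normalized counts), *mt-Cytb* (122500), *Ndufv1* (2563), *Sdhb* (3675) and *Uqcrh* (3289), and for *Ndufb3*, *Ndufb5*, *Ndufb7*, *Ndufb9* and *Atp5f1e*. *Mrc1Cre Xpr1fl/fl* sample 4 stood apart from its group in the last 2, *Ndufa4* (2026 normalized counts) and *Uqcrfs1* (2386).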

How the results depend on the processing

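Of the 26 named members called changed, *Cox6b2*, *Atp5if1* and *Cox7a2l* kept their call and direction under all 25 alternatives, of which those with the date rest on *Mrc1Cre Xpr1fl/fl* sample 5 alone. With the date as a term, alone, with the length trend removed or with near copies added, limma called 1194, 1255 and 1209 of all genes against 5865 without it. In those 3 fits 0 mitochondrial encoded members were lower, and 3 nuclear encoded members were lower and 0 higher. Over the same 3 fits, in that order, the median log2 fold change was −0.21, −0.15 and −0.22 for the mitochondrial encoded members, −0.252, −0.213 and −0.279 for those of complex I, −0.218, −0.174 and −0.218 for *mt-Cytb*, −0.024, 0.014 and −0.135 for complex IV and −0.116, −0.068 and −0.120 for complex V, and it was 0.029, 0.067 and 0.029 for the nuclear encoded members of complex III. With length removed and the date as a term, *mt-Co1* (0.014), *mt-Co2* (0.049), *mt-Atp6* (0.002) and *mt-Nd3* (0.018) changed sign. Nuclear encoded members lower numbered 43 after scaling to the 75th percentile, 38 after quantile normalization and 30 after scaling to the total of the nuclear genes, each with 0 higher. Over all genes tested these settings called 3707, 2556 and 3290 lower, against 2939 in the main fit. The number of nuclear encoded members higher was 0 without trend, 2 with robust fitting, 3 with array weights and 9 with the length trend removed. Quantile normalization gave medians of −0.253 for mitochondrial complex IV and −0.139 for complex II, with 9 mitochondrial encoded members lower (*mt-Co1*, *mt-Co2*, *mt-Co3* and *mt-Atp6* lost). The complex II median was 0.003 with array weights and 0.025 with the length trend removed, where that of nuclear complex III was 0.019. Without limma's trend the calls for *mt-Atp8*, *mt-Nd3*, *Uqcrc2* and *Ndufa4l2* were lost, and with robust fitting that for *mt-Nd3*. The causes of these changes were not tested. The alternatives with length or near copies were chosen after seeing the data.

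Leaving out 1 library at a time gave 4815 to 6081 calls over all genes, 10 to 13 mitochondrial encoded members lower with 0 to 0 higher, and 13 to 23 nuclear encoded members lower with 0 to 4 higher, the fewest lower without *Xpr1fl/fl* sample 1. The medians ran from −0.86 to −0.65 and −0.13 to −0.07, and for the mitochondrial encoded members of complexes I, III, IV and V from −1.019 to −0.771, −0.934 to −0.651, −0.677 to −0.411 and −0.51 to −0.313. For the nuclear encoded members of complexes I to V they ran from −0.15 to −0.079, −0.035 to 0.026, −0.093 to −0.035, −0.191 to −0.068 and −0.112 to −0.064. Same-numbered samples of the genotypes did not deviate together (correlations −0.03, 0.15, −0.01 and −0.03), so the numbers do not pair the samples. With the replicate block 13 mitochondrial encoded members were lower and 28 nuclear encoded members were lower and 2 higher. *Mrc1Cre Xpr1fl/fl* sample 5 has no control of its number, so in that fit it adds nothing to the genotype difference. The depth is unknown, so the counting error of low genes such as *Ndufa4l2*, *Cox6a2* and *Cox7a1* cannot be given.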
